A study of Saccharomyces cerevisiae with 8 samples.

Results

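Copper supply and high-affinity iron uptake were represented in the barcoded yeast pool by mutants of 8 genes, CTR1, MAC1, ATX1, CCC2, GEF1, FET3, FTR1 and AFT1, of 5100 strains named on the arrays. The genes were picked by name at a time when scores of these arrays were known, so their scores with 20 µM selenomethionine (SeMet) are given as a description, without a test. A value on at least 1 array was obtained for 7 of the 8 mutants, compared to 4749 of the 5100 named strains. The missing mutant was MAC1, whose single probe was blank on all 8 arrays. No DNA sequence of the tags or genes was used here, and the genes are given by locus tag and chromosome.

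Yeast takes up copper at the plasma membrane and hands it to the late Golgi, where it is loaded into a multicopper oxidase that works in iron uptake. The oxidase and an iron permease form a complex at the cell surface, so that a mutant lacking copper supply is also known to be poor in high-affinity iron uptake. CTR1 is switched on by the copper-sensing factor Mac1, and FET3 and FTR1 are switched on by the iron-responsive factor Aft1.

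All strains of the pool were haploid and derived from BY4741, which carries mutations in HIS3, LEU2, MET15 and URA3, and the pool held both deletion mutants and DAmP strains, in which the mRNA of an essential gene is destabilized. Cells were cultured for 10 generations in a complete medium with 0.1 mM methionine and 0.1 mM cysteine. On 3 arrays the pool exposed to 20 µM SeMet was set against the untreated pool, and on 2 arrays the same was done with 12 µM SeMet. A further 3 arrays set the untreated pool after growth, 16 h by the labels, against the pool at t = 0. A score is the log2 ratio of a strain's tag signal between the pools, averaged over its probes, so that a score of −1 stands for a signal 2 times lower with SeMet or, in the growth comparison, after growth. The pool exposed to SeMet or grown always carried the same dye, so that an effect of the dye cannot be told apart from that of the pool. The comparisons share untreated pools, so relations between them are shown side by side. The test of the dose difference under other observations took the doses as independent and decides nothing. Between 4353 and 4722 strains had a value per array. The SD over strains was 0.78 to 1.11 on the arrays of 20 µM, 0.42 and 0.53 on those of 12 µM and 0.76 to 0.90 on the growth arrays.

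With 20 µM SeMet, 6 of the 7 measured mutants had a mean below 0, the exception being ATX1, and 5 of them, CTR1, GEF1, CCC2, FET3 and FTR1, had a mean below −1.5. Of all strains, 3.06% had a mean below −1.5, a share given only as background because these values were known when the genes were picked. The median score was −1.88 for the 7 mutants and −0.09 for all 4536 scored strains. With 12 µM SeMet, 5 of the 6 scored mutants had a mean below 0, and the median was −1.16, compared to 0.00 for all strains (0.00035 before rounding). Among the 6 mutants with a value on all 5 SeMet arrays, 5 were below 0 on each of them, as were 19.7% of the 4321 strains with 5 values.

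**Figure D1:**
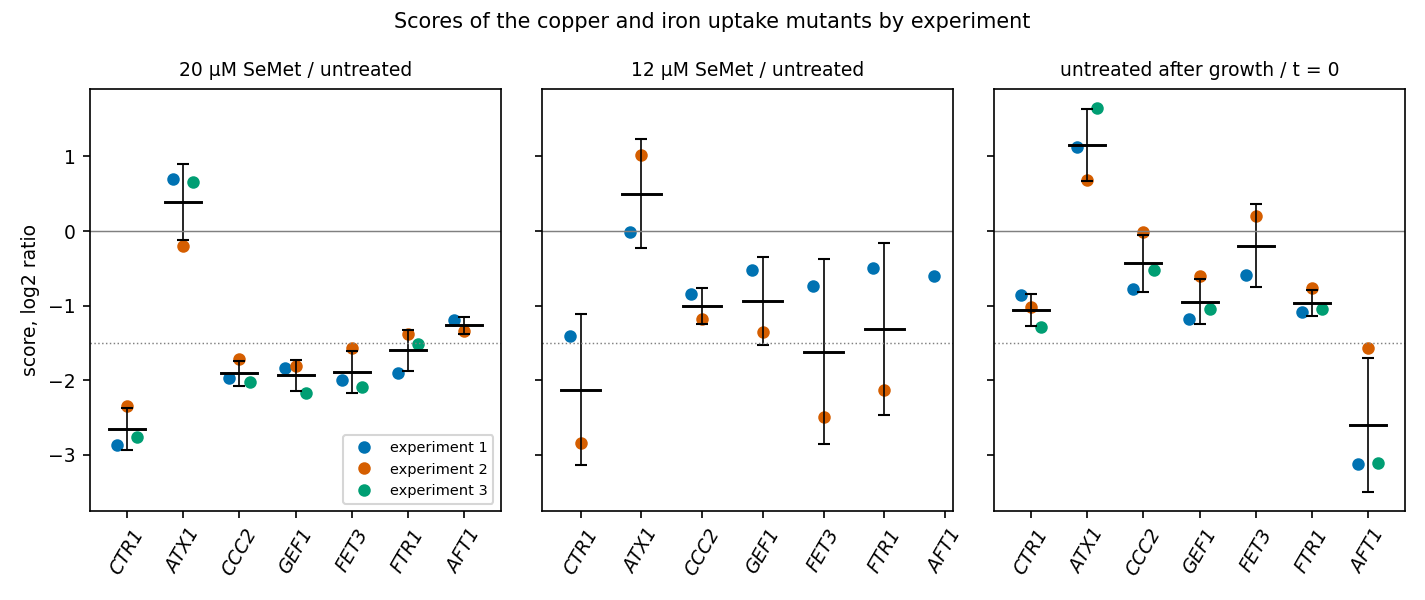
Scores of the 7 measured mutants with 20 µM SeMet, with 12 µM SeMet and for growth without SeMet, on the log2 scale, with 1 point per array and the bar and line giving mean and SD. The dotted line marks −1.5. CTR1 is lowest of the 7 at both doses, AFT1 is lowest for growth at −2.60, and ATX1 lies above 0 in all 3 means.

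CTR1 (YPR124W, chromosome XVI), encoding the high-affinity copper transporter of the plasma membrane, gave the lowest scores of the group with SeMet. Its mutant scored −2.86, −2.34 and −2.75 on the 3 arrays of 20 µM, a mean of −2.65 ± 0.28 (SD, n = 3), or a signal 6.29 times lower than in the untreated pool. The 3 arrays gave close values, and the mutant ranked 33rd from the bottom of 4536 strains. With 12 µM SeMet, CTR1 scored −1.41 and −2.84, a mean of −2.13 ± 1.01 (n = 2), rank 17 of 4368. This was the only mutant of the group past the threshold at 12 µM, with an adjusted p of 0.0255 (limma). The 95% interval of the mean in that fit ran from −2.83 to −1.42. This p and interval rest on a spread pooled over the arrays of 20 µM, 12 µM and growth. Both 12 µM scores of CTR1 lie just outside the interval, so it does not describe how far the 12 µM arrays differed. Without experiment 2 of 12 µM only 1 score was left, −1.41, and no test is given for it. The call was lost without growth array 1 (adjusted p = 0.0565, limma) or 2 (0.0543) and with the replicate number as a block (0.0588). A robust trended fit also lost it (0.0918), as did the first or second probe alone (0.1 and 0.0686). With the first probes alone GEF1 passed instead (adjusted p = 0.0431, limma). The transcription factor gene MAC1 (YMR021C, chromosome XIII), which drives CTR1 expression when copper is scarce, had no value.

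ATX1, CCC2 and GEF1 act between copper entry and the Golgi. CCC2 (YDR270W, chromosome IV) encodes the P-type ATPase that pumps copper into the late Golgi. Its mutant scored −1.97, −1.72 and −2.03 with 20 µM SeMet, a mean of −1.91 ± 0.16, or 3.75 times lower. CCC2 had the smallest SD of the mutants with 3 arrays, and it scored −0.84 and −1.17 with 12 µM SeMet (mean −1.01 ± 0.24, adjusted p = 0.0689, limma). GEF1 (YJR040W, chromosome X) encodes a chloride transporter of the CLC family in the Golgi and endosomes, which is needed for loading copper into Fet3. The mutant of GEF1 scored −1.84, −1.80 and −2.17 with 20 µM SeMet (mean −1.94 ± 0.20, 3.83 times lower). With 12 µM SeMet it scored −0.52 and −1.36 (mean −0.94 ± 0.59, adjusted p = 0.124, limma). CCC2 and GEF1 ranked 88 and 84 of 4536 at 20 µM, and their scores overlapped there. At 12 µM their ranks were 75 and 86 of 4368.

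ATX1 (YNL259C, chromosome XIV), the cytosolic chaperone that carries copper from the cell surface to Ccc2, stood apart from the other measured mutants. Its scores were 0.70, −0.20 and 0.66 with 20 µM SeMet (mean 0.38 ± 0.51), and −0.02 and 1.02 with 12 µM SeMet (mean 0.50 ± 0.73, adjusted p = 0.642, limma). The 95% interval of the mean at 12 µM ran from −0.26 to 1.26 and that of CTR1 from −2.83 to −1.42, which do not overlap. These intervals pool the spread over the arrays of all groups, so they do not measure the spread at 12 µM alone. The 12 µM scores of CTR1, −1.41 and −2.84, lay below those of ATX1. The scores of ATX1 came from 2 probes that disagreed. Probe 1 gave 1.91, −0.11 and 1.403 at 20 µM, whereas probe 2 gave −0.51, −0.30 and −0.09. With probe 2 alone the mean was −0.30 at 20 µM and −0.16 at 12 µM, so that the sign of the ATX1 score depends on the probe at both doses. The mean difference between the probes at 20 µM, 1.37, was reached by 2.33% of the 2835 strains with 2 probes, whose median difference was 0.216. Which probe reports the mutant was not tested.

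**Figure D2:**
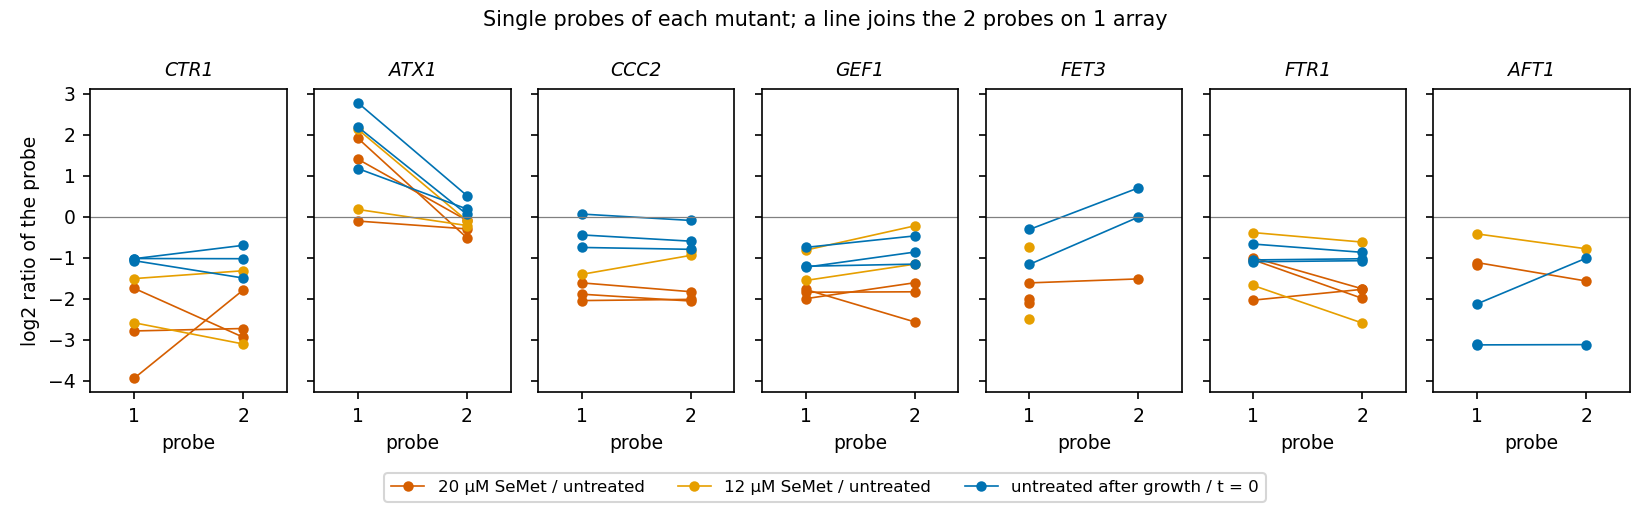
Log2 ratio of the first and second measured probe of each of the 7 mutants, with 1 point per probe and array and a line joining the probes of an array, coloured by comparison. In ATX1 the lines fall from up to 2.78 on probe 1 to no higher than 0.51 on probe 2, while in CCC2 they are nearly level, and FET3 and AFT1 lack the second probe on several arrays.

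The other mutants had probes of the same sign on every SeMet array. On single arrays of 20 µM the CTR1 probes lay furthest apart, with −3.94, −1.74 and −2.78 on probe 1 and −1.79, −2.94 and −2.73 on probe 2. Both probes put the mutant below −1.7 on each of the 3 arrays. The difference of the probe means at 20 µM was smaller for CTR1, 0.339, than for FTR1, 0.478. CCC2 had 4 probes, of which 2 gave values, and only 1 of these on experiment 1 of 12 µM. The second probe of FET3 had a value on 3 of the 8 arrays, 1 of them at 20 µM.

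FET3 (YMR058W, chromosome XIII) encodes the multicopper ferroxidase that receives copper in the Golgi, and FTR1 (YER145C, chromosome V) encodes the iron permease that works with it. The FET3 mutant scored −1.996, −1.56 and −2.09 with 20 µM SeMet, a mean of −1.88 ± 0.28, or 3.69 times lower. With 12 µM SeMet it scored −0.74 and −2.49 (mean −1.62 ± 1.24, adjusted p = 0.147, limma). The partner mutant, FTR1, scored −1.90, −1.38 and −1.52 at 20 µM (mean −1.60 ± 0.27, 3.03 times lower). At 12 µM, FTR1 scored −0.50 and −2.13 (mean −1.32 ± 1.15, adjusted p = 0.133, limma). The scores of both mutants overlapped at 20 µM, where they ranked 91 and 123 of 4536, and at 12 µM they ranked 29 and 46 of 4368. Without experiment 1 of 12 µM, FTR1 had 1 score left, −2.13, and no test is given for it.

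AFT1 (YGL071W, chromosome VII) encodes the transcription factor that turns on FET3, FTR1 and other iron genes when iron is low. The mutant scored −1.19 and −1.34 on the 2 arrays of 20 µM that measured it, a mean of −1.27 ± 0.11 (n = 2) and rank 185 of 4536. Among the mutants with a negative mean it was the highest at 20 µM. It had 1 value at 12 µM, −0.60 in experiment 1, and was not scored at that dose. Slowly growing mutants often lacked values with SeMet, as AFT1 did. All 5 SeMet values were present for 39.4% of the 142 strains with a growth score below −2, 77.8% of the 284 strains between −2 and −1, and 96.2% of the 4202 strains above −1.

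With 12 µM SeMet, 1 of the 6 scored mutants was lower, CTR1, and none was higher, at an unadjusted p under 0.05 either. The limma test called 0.87% of 4368 strains lower and 0.137% higher at that dose. At an unadjusted p under 0.05, 5 of the 6 mutants were lower (CTR1, CCC2, GEF1, FET3 and FTR1), compared to 6.64% of all strains. Scores at 12 µM were also known when the genes were picked, and both doses may have been set against the same untreated pools, so these counts at 12 µM are no independent support for the scores at 20 µM. When the arrays were scaled to the same spread, these same 5 mutants passed the adjusted threshold, while the count over all strains went up to 279 lower strains.

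The arrays of 12 µM differed between experiments for the same mutants. The difference of experiment 2 minus experiment 1 was −1.75 for FET3, −1.63 for FTR1 and −1.43 for CTR1. A difference as low was seen in 0.115% of the 4368 strains for FET3, 0.298% for FTR1 and 0.504% for CTR1. GEF1 had a difference of −0.84, reached by 3.27% of strains, and CCC2 one of −0.34, reached by 16.8%. The median difference over all strains was 0.02, with an SD of 0.423. FET3 and FTR1 were lower in experiment 2 of 12 µM, at −2.49 and −2.13, than on any array of 20 µM, and CTR1, at −2.84, was within its range at 20 µM. ATX1 moved the other way, being 1.04 higher in experiment 2. What set experiment 2 apart for these mutants was not tested.

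Ranks place each score among the strains of its own array and so do not depend on the spread of the array. CTR1 was within the lowest 0.914% of strains on the arrays of 20 µM, and at 1.22% and 0.269% on those of 12 µM. CCC2 kept the most even rank, between 2.10% and 2.16% at 20 µM and at 2.50% and 2.46% at 12 µM. FET3 lay between 1.98% and 2.65% at 20 µM, and at 3.23% and 0.425% at 12 µM. AFT1 ranked at 4.59% and 3.53% with 20 µM and at 4.62% with 12 µM. ATX1 varied from 34.9% to 88.5% at 20 µM, and was at 46.8% and 97.5% at 12 µM.

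**Figure D3:**
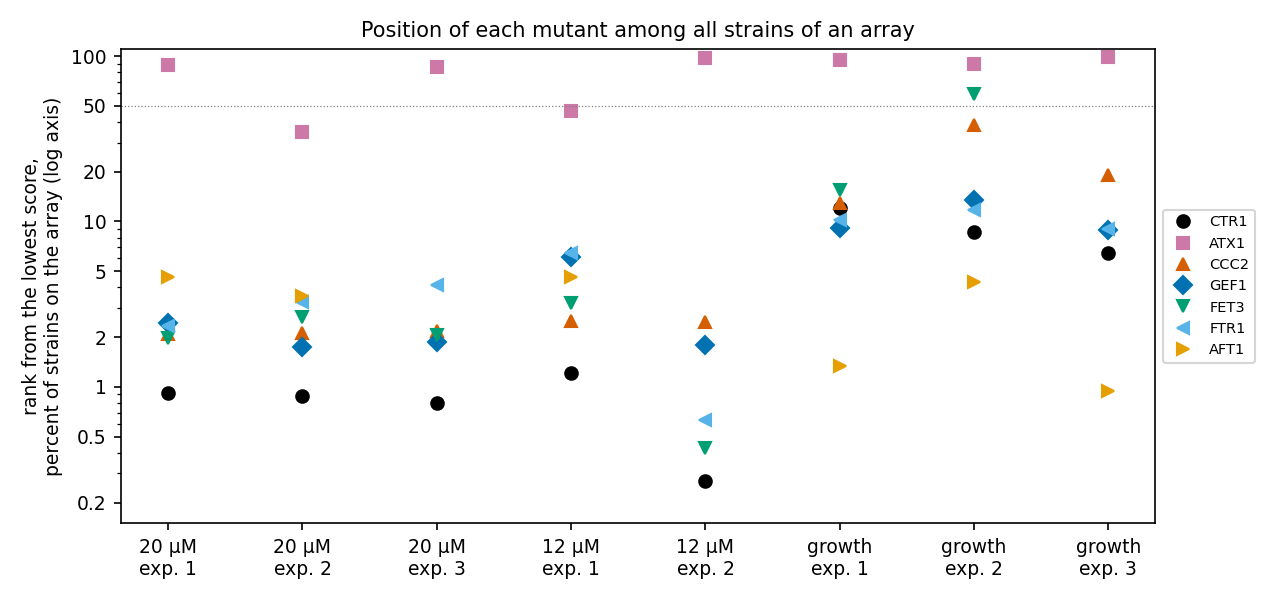
Percentile rank of each mutant among all strains of the same array, counted from the lowest score on a log axis, for the arrays of 20 µM, 12 µM and growth. The CCC2 points lie between 2.10% and 2.50% on all 5 SeMet arrays, and CTR1, FET3 and FTR1 lie lower in experiment 2 of 12 µM than in experiment 1.

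Without SeMet, 4 of the 7 scored mutants had lower growth scores, AFT1, CTR1, FTR1 and GEF1, and 1, ATX1, had a higher one. The test called 12.7% of 4628 strains lower and 14.2% higher for growth. Because scores of these arrays were known when the genes were picked, the growth counts are a description of the group. A mean below −1.5 was found for 1 of the 7, AFT1, and for 5.38% of all strains. The median was −0.95 for the 7 mutants and 0.08 for all strains. AFT1 had the lowest growth score, with −3.12, −1.57 and −3.11, a mean of −2.60 ± 0.89 (n = 3, 6.06 times lower, adjusted p = 0.00403, limma), rank 77 of 4628. Its second probe alone missed the threshold (adjusted p = 0.0695, limma). CTR1 scored −0.86, −1.02 and −1.28 (mean −1.05 ± 0.21, adjusted p = 0.0183, limma). FTR1 scored −1.08, −0.77 and −1.04 (mean −0.96 ± 0.17, adjusted p = 0.0348, limma). The GEF1 mutant scored −1.18, −0.61 and −1.05 (mean −0.95 ± 0.30, adjusted p = 0.00955, limma). The scores of CTR1, FTR1 and GEF1 overlapped one another, and those of AFT1 lay below all of theirs.

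The growth calls of CTR1, FTR1 and GEF1 depended on single arrays. Without growth array 1, 2 or 3 the adjusted p from limma was 0.0616, 0.0748 and 0.0835 for CTR1, and 0.142, 0.0903 and 0.117 for FTR1. GEF1 was lost without growth array 1 (adjusted p = 0.0624, limma), whereas AFT1 passed without any one of them. FTR1 was also lost with the replicate block (adjusted p = 0.0612, limma) and with arrays scaled to the same spread (0.0951). The CTR1 growth call was lost with the first or second probe alone as well (adjusted p = 0.0707 and 0.0544, limma).

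CCC2 and FET3 did not pass the growth test in the fit used. CCC2 scored −0.77, −0.01 and −0.52 (mean −0.43 ± 0.39, adjusted p = 0.0796, limma). It did pass with each array centred on its median (−0.52, adjusted p = 0.0475, limma), without growth array 2 (−0.65, 0.0417) and with its second measured probe alone (−0.49, 0.04). FET3 was measured on 2 growth arrays, with −0.59 and 0.20 (mean −0.19 ± 0.55, n = 2, adjusted p = 0.753, limma), and its probes differed by 1.08 on average there. Probe 1 of FET3, which gave all but 1 of its SeMet values, had −1.16 and −0.31 for growth, whereas probe 2 had −0.01 and 0.70, so that the sign of its growth mean depends on the probe. ATX1 had growth scores of 1.12, 0.68 and 1.65 (mean 1.15 ± 0.48, 2.22 times higher, adjusted p = 0.0181, limma), which put it at rank 4509 of 4628. Probe 1 of ATX1 gave 2.19, 1.17 and 2.78 and probe 2 gave 0.06, 0.19 and 0.51, and with probe 2 alone the mean was 0.25 (adjusted p = 0.189, limma). The ATX1 call was also lost without growth array 1 (adjusted p = 0.0763) or 3 (0.0901).

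**Figure D4:**
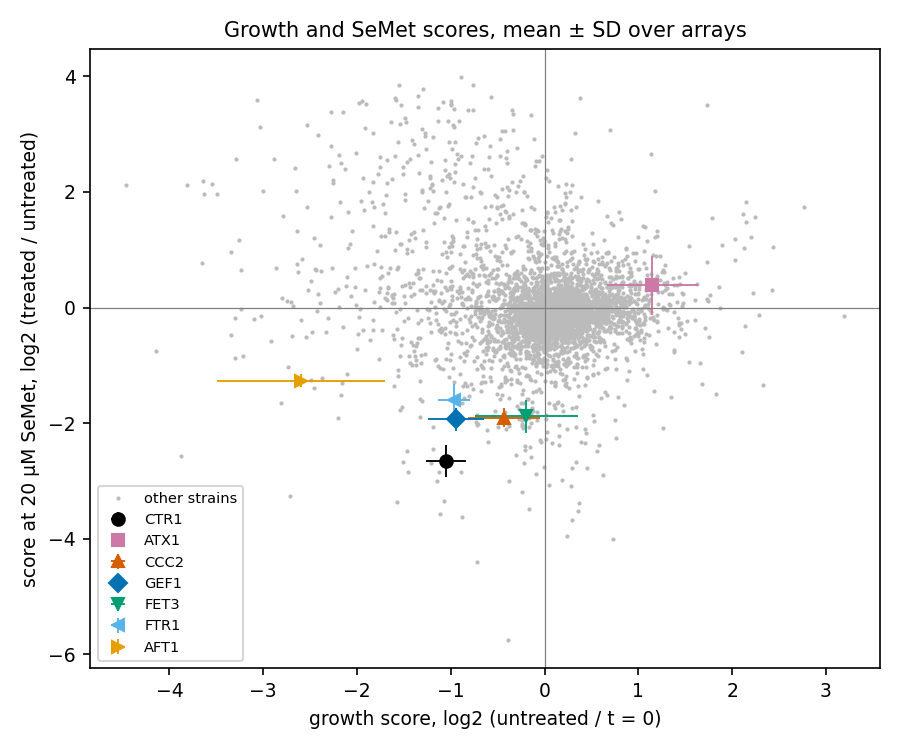
Mean score with 20 µM SeMet against mean growth score without SeMet, both on the log2 scale, with the 7 measured mutants as coloured points with SD bars and all other strains in grey. AFT1 stands at −2.60 for growth and −1.27 with SeMet, CTR1 at −1.05 and −2.65, and FET3 at −0.19 and −1.88.

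Other genes of copper and iron handling were counted in 5 lists, with the vacuolar ATPase and zinc, magnesium and manganese genes as 2 more, 109 genes in all, none of them of the 8. With 20 µM SeMet, 19 of 75 tested list strains were lower and 3 higher, where the test called 13.8% of all strains lower and 12.5% higher. The same shares are the background for each list below. The lists were chosen with earlier results of these data known, so their counts and p-values are a description and no independent support. With 12 µM SeMet none of 74 passed the limma test in either direction, and at an unadjusted p under 0.05, 6 were lower and 2 higher. Without array 3 of 20 µM, the count of lower list strains was 10 and that of higher ones 1.

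Of the genes that bring copper to mitochondria and to superoxide dismutase, 5 of 9 tested were lower at 20 µM and none higher, with a median of −0.61. SOD1, the copper and zinc superoxide dismutase, scored −1.95, −1.76 and −1.41 (mean −1.70 ± 0.28, adjusted p = 0.000994, limma), scores that overlap those of FTR1. COX19 and COX17, copper-binding proteins needed for cytochrome oxidase, had means of −1.30 ± 0.53 (adjusted p = 0.00287, limma) and −1.004 ± 0.38 (adjusted p = 0.04, limma). The COX17 call was lost without any one array of 20 µM (adjusted p = 0.156, 0.0555 and 0.16, limma) and without growth array 2 (0.0607). CCS1, the chaperone that gives copper to Sod1, was measured on 1 array of 20 µM, at −1.95, and was not scored. Without array 1 or array 3 of 20 µM, 2 of the 9 were lower.

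Among the remaining genes of copper uptake and storage, 1 of 5 tested was lower at 20 µM. This was PCA1, a P-type ATPase that exports metal ions, with −1.97, −1.26 and −1.71 (mean −1.65 ± 0.35, adjusted p = 0.000332, limma). The copper transporter gene CTR3 had no probe under its name.

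Genes of the other iron uptake routes, among them siderophore transporters and further metal carriers, had a median of −0.19 at 20 µM. Of 18 tested, 2 were lower at 20 µM, FIT2 and SMF1, and none had a mean below −1.5, the lowest being −0.60. Without any one array of 20 µM, 1 of the 18 was lower, since FIT2 no longer passed (adjusted p = 0.0712, 0.091 and 0.0902, limma). The same holds with the replicate block (0.0543 for FIT2). FET4, the low-affinity iron transporter, averaged −0.17 ± 0.25 (adjusted p = 0.416, limma). FET5 and FTH1, the vacuolar relatives of FET3 and FTR1, averaged −0.26 ± 0.09 (adjusted p = 0.151, limma) and −0.38 ± 0.44 (adjusted p = 0.133, limma). The 3 scores of FET3 lay below all of those of FET5, as did those of FTR1 below those of FTH1.

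In the list of iron regulation and storage, 4 of 11 tested were lower at 20 µM (GRX3, HMX1, AFT2 and YFH1) and none higher. GRX3, a monothiol glutaredoxin that passes the iron signal to Aft1, scored −1.51, −2.02 and −2.24 (mean −1.92 ± 0.37, adjusted p = 0.00122, limma). AFT1 was at −1.27 ± 0.11, and its paralog AFT2 averaged −0.43 ± 0.22 (adjusted p = 0.0375, limma). The AFT2 call did not hold without array 1 or 3 of 20 µM (adjusted p = 0.172 and 0.127, limma), either array of 12 µM (0.0601 each) or growth array 1 (0.0553) or 2 (0.0567), nor with the replicate block (0.0552).

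Of 18 iron-sulfur cluster assembly genes tested, 6 were lower and 2 higher at 20 µM, with a median of 0.04. Without array 3 of 20 µM, 3 were lower. ISU2, a scaffold protein, averaged −1.07 ± 0.32 (adjusted p = 0.00271, limma). MET18, which hands clusters to cytosolic and nuclear proteins, was higher with 1.24 ± 0.38 (adjusted p = 0.00078, limma), and had a low growth score of −1.70 ± 0.16. Only 2 of 20 vacuolar ATPase genes could be tested and neither passed with limma (1 was higher at an unadjusted p under 0.05), and VPH1 had a value on 1 array of 20 µM, −0.98. Among 12 zinc, magnesium and manganese genes 1 was lower, and none without any one array of 20 µM, and 1 was higher. The higher one was ZAP1, the zinc-responsive transcription factor (2.57 ± 0.74, adjusted p = 0.0107, limma), which was lost without array 3 of 20 µM (adjusted p = 0.0652, limma). The ZAP1 mutant had 1 measured probe and a low growth score of −3.29 ± 1.73 (n = 2), so its untreated signal was low.

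**Figure D5:**
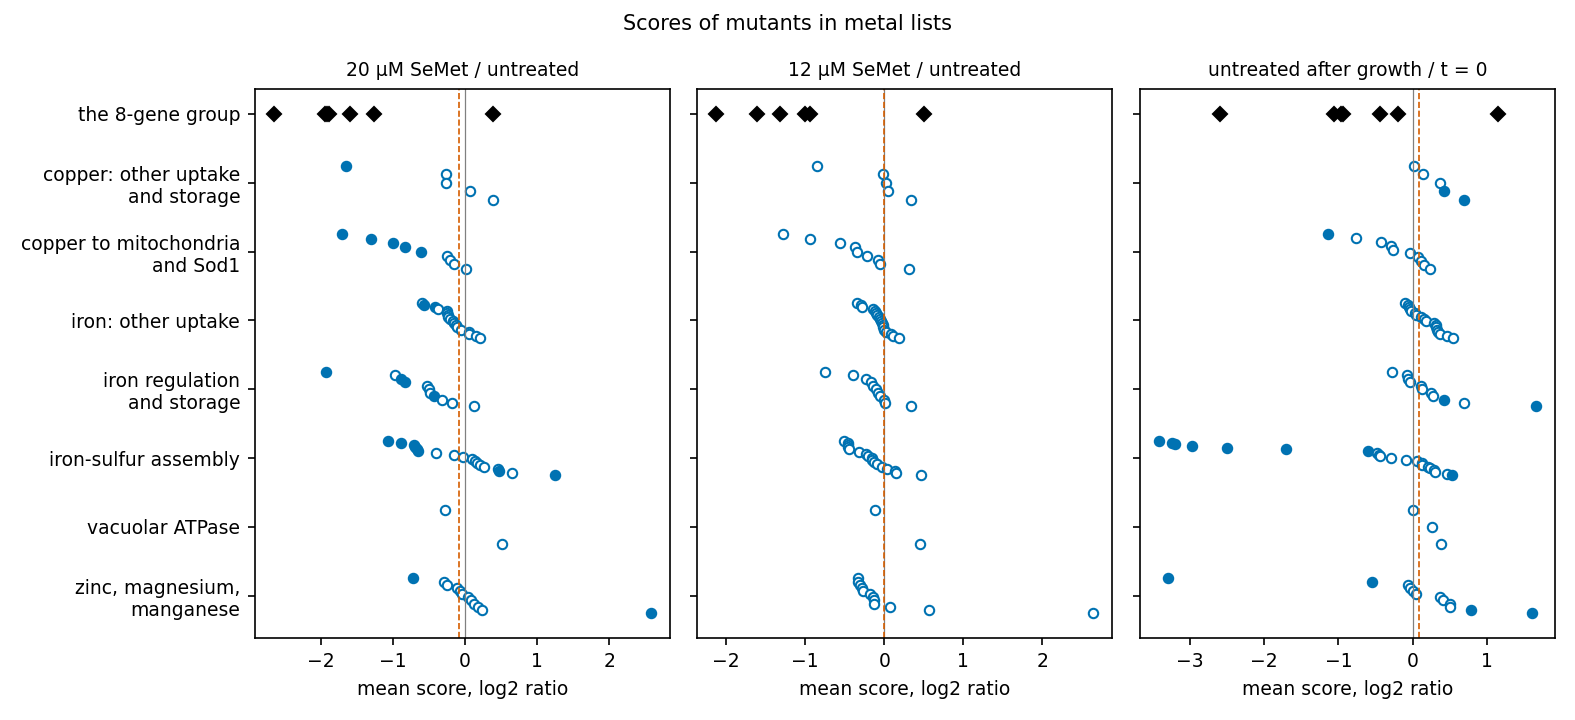
Mean scores of the strains in the 7 lists and of the measured genes of copper supply and high-affinity iron uptake (diamonds), with 20 µM SeMet, with 12 µM SeMet and for growth, on the log2 scale. Filled circles had an adjusted p under 0.05 and the dashed line is the median of all strains. No other iron uptake gene lies below −0.60 at 20 µM.

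Deletion of a gene can alter the gene beside it, so the scores of the 16 genes next to the 8 were looked up. Scores were available for 10 of them, none of which overlaps its partner, and with 20 µM SeMet 4 were lower and none higher by limma (1 at an unadjusted p under 0.05), where the test called 13.8% of all strains lower and 12.5% higher. The median of the 10 was −0.06. AXL1 beside CTR1 averaged −0.39 (adjusted p = 0.0495, limma), FMS1 beside MAC1 −0.49 (0.0342) and AAC1 beside FET3 −0.49 (0.0183). Each of these 3 calls was lost without any one array of 20 µM, with adjusted p from limma of 0.0676 to 0.221 for AXL1, 0.0599 to 0.163 for FMS1 and 0.0536 to 0.086 for AAC1. AXL1 and FMS1 were also lost without either array of 12 µM (0.0666 and 0.0563) or growth array 1 (0.0742 and 0.0557), and AXL1 without growth array 2 (0.0739) or 3 (0.0564) and with the replicate block (0.0751). The exception in size was URB2, a ribosome biogenesis gene beside GEF1, with −1.66, −2.36 and −3.01 (mean −2.34 ± 0.68, adjusted p = 0.000312, limma). At 12 µM GEF1 had a mean of −0.94 and URB2 one of 0.06, and for growth GEF1 had −0.95 and URB2 0.08. The neighbours LTO1, MLO127, SEN15, YER145C-A and HSF1 had no value, and RPB9 beside AFT1 had 1, a growth score of −1.89.

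The strains with profiles nearest to CTR1 over the 8 arrays, by root mean square difference among 4204 strains, were TVP18 (0.474), SNF8 (0.511) and GPH1 (0.575). Their means at 20 µM were −2.45, −2.69 and −3.00, and those at 12 µM −1.81, −2.13 and −2.49. The profile nearest to the mean of the 5 mutants with values on all arrays, ATX1 included, was that of KHA1 (0.201), followed by GOS1 (0.267) and YMR075C-A (0.307). Within the group, CCC2 was the third nearest to GEF1 of all 4208 strains compared (0.350), and GEF1 was the second nearest to FTR1 (0.395). For CTR1, the nearest of the others was FTR1 in place 15.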

How the data were processed

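Barcode pools were compared on 8 two-colour custom Agilent arrays. The authors quantified spots with GenePix Pro and normalized them with R scripts, and deposited 1 log2 ratio for each probe. The normalization method is not given in the sources used here, and signal intensities were not used, so the number of arrays limits the precision. Per the labels there are 3 arrays of 20 µM SeMet, 2 of 12 µM and 3 of growth. Of 15744 probes, 13084 carry a gene symbol, and 17 belong to the 8 genes, of which 14 had a value. Of 5100 names, 5098 were found in the RefSeq annotation, which was used for locus tags, chromosomes and neighbouring genes only. The names do not say whether a strain is a deletion or a DAmP mutant.

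Probes were averaged per strain and array, and a strain was scored in a group where 2 or more of its arrays had a value. Group means were tested against 0 with lmFit and eBayes of limma 3.58.1 (R 4.3.3) over all 8 arrays, two-sided, without a block, with Benjamini-Hochberg adjustment over all strains scored and a threshold of 0.05. Every adjusted p and 95% interval is from this fit, unless another setting, a left-out array or a single probe is named beside it. The arrays of a group are separate experiments by their titles. In simulated data with normal noise, 91.8% of strains shifted by 1.5 were called at 12 µM (4365 strains). Each simulated strain had 1 spread on all arrays, so this share is no guide for mutants whose 12 µM arrays differed. Deviations from the group mean correlated at r from −0.27 to 0.162 for same-numbered arrays and from −0.183 to 0.27 for differently numbered ones. The 2 arrays of 12 µM mirror each other in this check, so it does not settle how arrays are paired.

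The 8 genes and the lists were chosen with earlier results of these data known. Besides the 8 genes, those named are list strains past the threshold with a mean of at least 1 from 0 at 20 µM (up to 3 per list), CTR3, COX17, CCS1, SOD1, AFT2, FET4, FET5, FTH1 and VPH1, neighbouring genes and nearest profiles. HMX1, YFH1, FIT2, SMF1 and the genes under other observations were named after their values were seen. Tables and figures were made with Python 3.11.15, pandas 2.3.3, numpy 2.4.6 and matplotlib 3.10.9.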

Additional observations from a re-analysis of the deposited data

How the results depend on the processing

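The number of the 6 mutants lower at 12 µM, 1 in the fit used, was 5 with arrays scaled to the same spread, 2 with only the 12 µM arrays in the fit, 0 with a robust trended fit, 0 with the replicate block, 2 among strains with all 8 values and 0 with the second probe, an alternative chosen after seeing the data. Over all strains, 38 were lower at 12 µM, and 279, 79, 6 and 20 under the first 4 of these settings. With scaled arrays 295 strains were higher at 12 µM, and 48.6% of the calls were lower ones, compared to 86.4%. For growth, centring the arrays gave 665 lower and 441 higher strains, or 60.1% lower, compared to 588 and 656, or 47.3%. The second probe alone gave 0 mutants with higher growth and turned ATX1 at 20 µM to −0.30, ATX1 at 12 µM to −0.16 and FET3 for growth to 0.35. Averaging ranks over arrays moved CTR1 at 20 µM to percentile 0.862, CCC2 at 20 µM to 2.13 and CCC2 at 12 µM to 2.48, compared to 0.728, 1.94 and 1.72 by the mean score.

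Leaving out each array of 20 µM or growth in turn gave 0 to 1 mutant and 19 to 49 strains lower at 12 µM. Fits without an array of 12 µM leave 1 score per strain there, so their counts at 12 µM are not given. Leaving out each array in turn gave 1 to 4 mutants and 280 to 664 strains lower for growth, and 0 to 1 mutant higher. It gave 10 to 20 list strains lower and 1 to 4 higher at 20 µM. At 20 µM, 4 to 5 mutants had a mean below −1.5. The replicate block ended the CTR1 call at 12 µM (adjusted p = 0.0588, limma) and the FTR1 call for growth (0.0612). It also ended the calls of AFT2 (0.0552), AXL1 (0.0751) and FIT2 (0.0543) at 20 µM. Centring each array on its median ended the 20 µM calls of AFT2 (adjusted p = 0.0759, limma), COX17 (0.0546), FIT2 (0.0591), AXL1 (0.128) and FMS1 (0.052). Scaling the arrays to the same spread ended the same calls (0.0715, 0.0814, 0.0532, 0.108 and 0.0599). With either setting, 3 genes that bring copper to mitochondria and to superoxide dismutase were lower at 20 µM, compared to 5. ATX1 at 12 µM ran from −0.019 to 1.02, being −0.019 without experiment 2. Among the scores recomputed under the alternatives, these of ATX1 and FET3 were the only ones to change direction.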

Other observations

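Genes of iron-sulfur cluster assembly, which use the iron that Fet3 and Ftr1 bring in, were lower for growth without SeMet in 7 of 21 strains tested and higher in 1, where 12.7% of all strains were lower and 14.2% higher. A mean below −1.5 was found for 6 of the 21 and for 5.38% of all strains. Mutants of the mitochondrial assembly genes ISA1, IBA57, GRX5, SSQ1 and ISA2 averaged −3.42 ± 1.42, −3.24 ± 0.01, −3.21 ± 0.19 (n = 2), −2.97 ± 0.23 (n = 2) and −2.49 ± 0.28, below the −2.60 of AFT1 apart from ISA2. The growth score of AFT1 was −2.60 ± 0.89, and that of FRA1, whose product restrains Aft1, was 1.66 ± 0.68 (adjusted p = 0.0055, limma). At 20 µM SeMet, GRX4, the paralog of GRX3, averaged −0.32 ± 0.08 (adjusted p = 0.0507, limma).

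Between the doses, no strain of 4364 passed the adjusted test of the difference, and 562 had an unadjusted p under 0.05. This test took the doses as independent, although they share untreated pools, so it cannot tell which strains differ. URB2, beside GEF1, averaged −2.34 at 20 µM and 0.06 at 12 µM, and MET18 averaged 1.24 and −0.13.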
